A study of Mus musculus with 10 samples.

Results

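The uncoupling proteins are carriers of the inner mitochondrial membrane, and 5 mouse genes listed for them by name were looked for in the array table: Ucp1, Ucp2, Ucp3, Slc25a14 (also called UCP5 or BMCP1) and Slc25a27 (also called UCP4). A gene was taken from a row of the array whose annotation names it alone, and 4 of the 5 genes had 1 such row each. No row of the annotation table names Ucp2, alone or with other genes, so its expression was not analysed here. RNA of isolated islets, the hormone-secreting cell clusters of the pancreas, was hybridised to 10 arrays, 5 from islets taken at ZT8 (8 h after lights on, in the light phase) and 5 at ZT20 (in the dark phase), from male C57BL/6 mice 10 weeks old with no genetic change or drug in either group. The islets were picked by hand and cultured for 24 h (overnight in another label), and the ZT20 mice were those kept on an inverted light cycle, so time of day and that housing cannot be told apart. The titles call the samples of a group biological replicates.

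The members of this family share 1 fold, a bundle of membrane helices built from a triple repeat, with the larger SLC25 family of mitochondrial carriers. UCP1, the thermogenic protein of brown fat, lets protons return to the mitochondrial matrix without making ATP, is activated by fatty acids and is held closed by purine nucleotides. UCP3 is known from skeletal muscle and brown fat, and the proteins of Slc25a14 and Slc25a27 mainly from brain. In beta cells a rise of ATP made from glucose closes the KATP channel and starts insulin secretion, and UCP2 has been studied there as a protein that lowers this yield. The paper discusses Ucp2 as a link between the clock and secretion, citing another study made mainly at other times of day. For ZT8 and ZT20 it holds a role of ATP to be unlikely. The question here is whether the family's transcripts differed between ZT8 and ZT20.

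Ucp3 and Ucp2 are neighbours in GRCm38.p6, at chr7:100472991-100486432 and chr7:100493337-100499629. Ucp1 lies at chr8:83290348-83298456, Slc25a14 at chrX:48623418-48662298 and Slc25a27 at chr17:43637739-43667214. The promoter windows below, from RefSeq and GRCm38.p6, are shown because clock factors and PPARs act through short DNA words and the members differ in which of these their windows hold. RefSeq windows matched 4 of the 5 genes, without Slc25a27. All are on the plus strand, and capitals mark CACGTG (the E-box bound by CLOCK and BMAL1) and AGGTCA (a half-site shared by PPARs, REV-ERBs and other nuclear receptors), searched on both strands together with the D-box words TTATGTAA and TTACGTAA. The windows are chrX:48623198-48623497, chr7:100472741-100473040, chr8:83290098-83290397 and chr7:100493108-100493407, in this order.
Slc25a14: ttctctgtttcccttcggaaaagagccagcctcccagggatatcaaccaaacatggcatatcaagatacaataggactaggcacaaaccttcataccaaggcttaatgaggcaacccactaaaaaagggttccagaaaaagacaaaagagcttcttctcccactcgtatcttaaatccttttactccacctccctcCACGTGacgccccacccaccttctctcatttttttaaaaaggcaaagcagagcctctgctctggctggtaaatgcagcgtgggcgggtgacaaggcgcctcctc
Ucp3: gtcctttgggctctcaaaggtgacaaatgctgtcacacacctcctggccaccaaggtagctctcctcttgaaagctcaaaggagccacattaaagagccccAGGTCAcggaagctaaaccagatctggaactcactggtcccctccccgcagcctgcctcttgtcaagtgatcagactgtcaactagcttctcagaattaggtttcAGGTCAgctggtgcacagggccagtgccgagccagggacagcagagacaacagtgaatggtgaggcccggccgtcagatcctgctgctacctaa
Ucp1: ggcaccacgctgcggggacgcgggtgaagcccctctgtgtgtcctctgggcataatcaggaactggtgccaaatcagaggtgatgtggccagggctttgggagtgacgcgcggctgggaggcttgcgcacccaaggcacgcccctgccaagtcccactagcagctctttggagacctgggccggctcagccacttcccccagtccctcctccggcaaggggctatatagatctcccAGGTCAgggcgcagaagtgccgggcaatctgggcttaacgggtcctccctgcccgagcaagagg
Ucp2: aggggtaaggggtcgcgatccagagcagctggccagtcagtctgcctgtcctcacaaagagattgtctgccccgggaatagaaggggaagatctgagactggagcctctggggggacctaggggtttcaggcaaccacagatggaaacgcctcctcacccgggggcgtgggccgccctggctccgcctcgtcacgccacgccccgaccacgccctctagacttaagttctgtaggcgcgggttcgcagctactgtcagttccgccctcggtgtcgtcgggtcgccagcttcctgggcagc

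Slc25a14 held 1 E-box, beginning 54 bases before the annotated start in the window shown, and the same E-box lay in the second of its 3 overlapping windows. Of all 32851 windows of this length, 7.15% held an E-box. Ucp3 held AGGTCA at 2 places, 149 and 44 bases before its start, and Ucp1 held it once, 14 bases before its start, against 16.3% of all windows with at least 1 and 1.81% with at least 2. The Ucp2 window held none of these words, and no window of a member held a D-box word, which 1.06% of all windows did. These matches describe letters in a window and are not binding sites.

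None of the 4 measured uncoupling protein genes passed the test between ZT8 and ZT20. Their differences, ZT8 minus ZT20 on the log2 scale, lay between -0.02 for Ucp3 and 0.10 for Slc25a27, and the ZT8 and ZT20 arrays of every member overlapped. None passed at an unadjusted p under 0.05 either, by limma or by the methods' t-test, which was run for unequal variances. Over the whole array limma, a linear model that shares the spread between rows, called 0.744% of 32814 rows at an adjusted p under 0.05. An unadjusted p under 0.05 was found for 18.5% of these rows by limma and for 5435 of them by the other test. With so few members, the lack of such a p among them does not set the family apart from other rows. On the signals as deposited, the 95% confidence intervals allowed a change of signal of at most 1.09-fold in either direction for Ucp1, 1.10-fold for Ucp3, 1.14-fold for Slc25a14 and 1.20-fold for Slc25a27. These limits are on the signal and not on the transcript. All 4 rows lay inside the range of the background control rows, whose upper end comes from GC-rich probes. Other scalings moved the difference of Ucp1 to as much as 0.08 and that of Slc25a27 to as much as 0.15. In these bulk islet samples fewer cells of a type and less RNA per cell cannot be told apart.

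**Figure D1:**
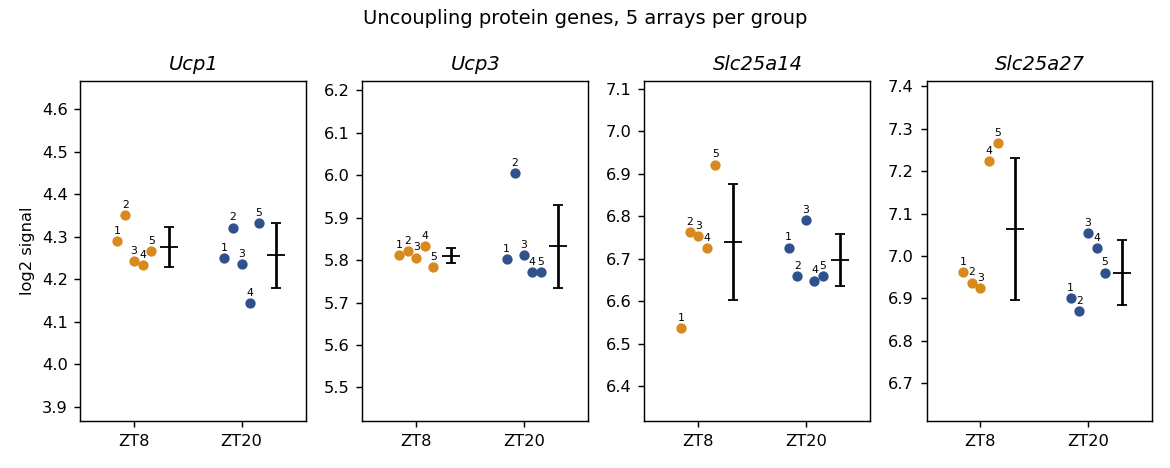
Log2 signal of the 4 measured uncoupling protein genes on each of 5 ZT8 (orange) and 5 ZT20 (blue) arrays, with the replicate number beside each point and the group mean ± SD in black. Each panel spans the same height, and the groups overlap in all 4, with Ucp3 on ZT20 replicate 2 at 6.00 above the other ZT20 arrays.

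Slc25a27 had the largest difference among the members. Its log2 signal was 6.96, 6.94, 6.92, 7.22 and 7.27 on ZT8 replicates 1 to 5 and 6.90, 6.87, 7.05, 7.02 and 6.96 on ZT20 replicates 1 to 5. ZT8 replicates 4 and 5 lay above all ZT20 arrays, and the other 3 ZT8 arrays lay among them. The mean was 7.06 ± 0.17 (SD, n = 5) at ZT8 against 6.96 ± 0.077 at ZT20. They differed by 0.10 (SE 0.076, 95% confidence interval -0.06 to 0.27, adjusted p = 0.48 from limma).

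Slc25a14, the other carrier known mainly from brain, was at 6.54, 6.76, 6.75, 6.72 and 6.92 on ZT8 replicates 1 to 5 on the log2 scale. On ZT20 replicates 1 to 5 it was at 6.73, 6.66, 6.79, 6.65 and 6.66. The ZT8 group held both the lowest and the highest of the 10 values, and its range of 0.39 was wider than the 0.14 of the ZT20 group. The difference between the means was 0.04 (SE 0.066, 95% confidence interval -0.10 to 0.19, adjusted p = 0.75 from limma). Its direction turned to -0.0027 without ZT8 replicate 5, the highest array.

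Ucp3 was nearly constant on 9 of the 10 arrays. At ZT8 its log2 signal ran from 5.78 to 5.83 over replicates at 5.81, 5.82, 5.81, 5.83 and 5.78, with an SD of 0.018. At ZT20 it was 5.80, 6.00, 5.81, 5.77 and 5.77 on replicates 1 to 5. The single high array was ZT20 replicate 2, and the other 4 ZT20 arrays overlapped with those of ZT8. The difference was -0.02 (SE 0.052, 95% confidence interval -0.13 to 0.09, adjusted p = 0.84 from limma), and 0.02 without ZT20 replicate 2 (adjusted p = 0.85), 0.03 once every array's median was set to a common value and 0.02 on quantile-normalized values. On that array 29.4% of the tested rows had their highest value of the 10 arrays. The mean over 10 skeletal muscle marker rows was also highest there, at 6.47 against 6.13 to 6.32 at ZT8, and so was that over 10 fat marker rows, at 5.78 against 5.52 to 5.69 at ZT8. The mean over 10 neuron and glia marker rows was highest there too, at 6.45 against 6.22 to 6.40 at ZT8. The lowest ZT20 means were 6.22 for muscle, 5.62 for fat and 6.25 for neuron and glia. Means over islet, leukocyte, acinar, endothelial and fibroblast marker rows were not highest there. For leukocyte rows it was 7.01, against up to 7.02 at ZT20, and for endothelial rows 8.16, the lowest at ZT20. The part of these cell types in the Ucp3 value was not tested.

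Ucp1 was the dimmest member. Its log2 signal was 4.29, 4.35, 4.24, 4.23 and 4.27 at ZT8 and 4.25, 4.32, 4.23, 4.14 and 4.33 at ZT20, in replicate order. All 10 values lay within 4.14 and 4.35, and 4 of the 5 ZT8 values fell inside the ZT20 range. The difference was 0.02 (SE 0.050, 95% confidence interval -0.09 to 0.13, adjusted p = 0.85 from limma), and it was -0.0082 without ZT20 replicate 4. Of 10 markers of brown and white fat, none passed the test (1 at an unadjusted p under 0.05 by limma and 1 by the methods' t-test, Plin1, at -0.17 with adjusted p = 0.19, named after its value was seen). By limma 18.5% of all tested rows lay at an unadjusted p under 0.05, and by the methods' t-test 5435 of 32814 did. Where 20313 of all 32814 rows had a negative difference, 9 of these 10 markers did, with differences from -0.17 to 0.05. The brightest were Cox7a1, a subunit of cytochrome oxidase, at a mean log2 signal of 7.38, and Prdm16, a brown fat regulator, at 6.70, whereas the fat hormone gene Adipoq, named after its value was seen, was at 3.76.

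Exact two-sided permutation tests of each member alone gave p from 0.30 for Slc25a27 to 0.94 for Ucp3, where 5 against 5 arrays can reach p = 0.0079 at the lowest. Of 6 clock genes used to check the time labels, 3 were called higher and 2 lower at ZT8 by limma, all 6 had an unadjusted p under 0.05, and none was called by the methods' t-test. Nr1d1, a clock repressor gene, differed by 1.17 and Arntl, which encodes BMAL1, by -0.70 (adjusted p = 0.0012 and 0.036 from limma), and neither overlapped between groups. Dbp (0.55) and Cry1 (-0.60) did not overlap either, whereas Nr1d2 (0.66) and Per3 (0.43, adjusted p = 0.097 from limma, not called) did. How many of all tested rows lacked overlap was not counted.

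**Figure D2:**
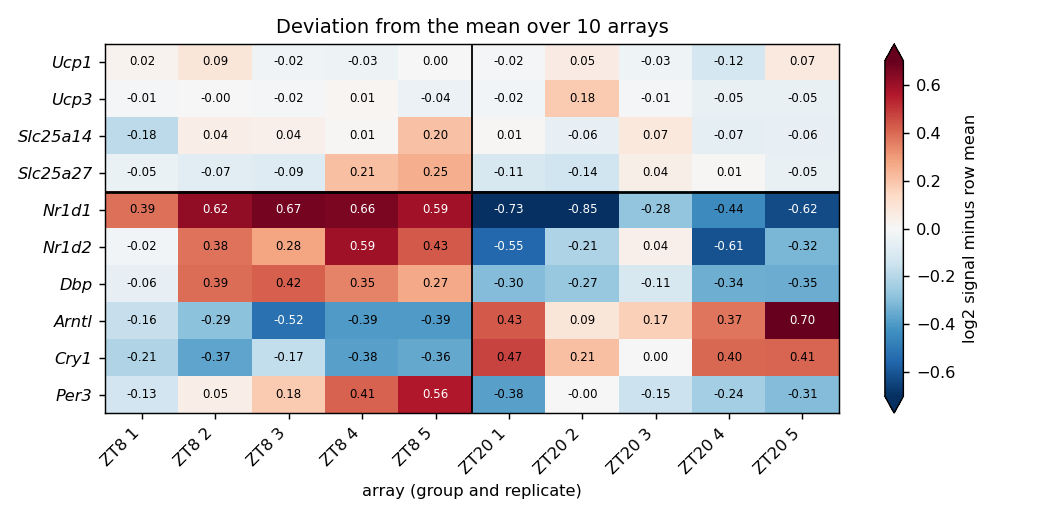
Each cell gives the log2 signal of a gene on 1 array minus that gene's mean over the 10 arrays, for the 4 uncoupling protein genes (above the line) and 6 clock genes (below), with ZT8 arrays on the left. Nr1d1 and Arntl change sign between the groups on every array, while each uncoupling protein row holds both signs in each group.

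The rows of the members were dim to middling on the array. Ucp1, with a mean log2 signal of 4.27, lay above 20.9% of the tested rows, Ucp3 (5.82) above 43.1%, Slc25a14 (6.72) above 57.4% and Slc25a27 (7.01) above 61.7%. The 23 background control rows, whose probes differ in GC content and match no transcript, had means from 2.14 to 7.07, and 13 of them lay below Ucp1, 16 below Ucp3, 20 below Slc25a14 and 22 below Slc25a27. Every member therefore lay inside the range that background probes covered on these arrays. Control rows of 3 to 14 GC bases had means from 2.14 to 3.50, and those of 19 to 25 from 6.16 to 7.07. The GC content of the members' probes was not examined, so the range does not show whether a member exceeded background of like GC content. Rows have different probes, so the levels give the place of each row in the table and not the relative amounts of the transcripts. The SE of the difference was 0.050 for Ucp1 and 0.052 for Ucp3, below the median of 0.065 over all rows, and 0.066 for Slc25a14 and 0.076 for Slc25a27, above it.

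**Figure D3:**
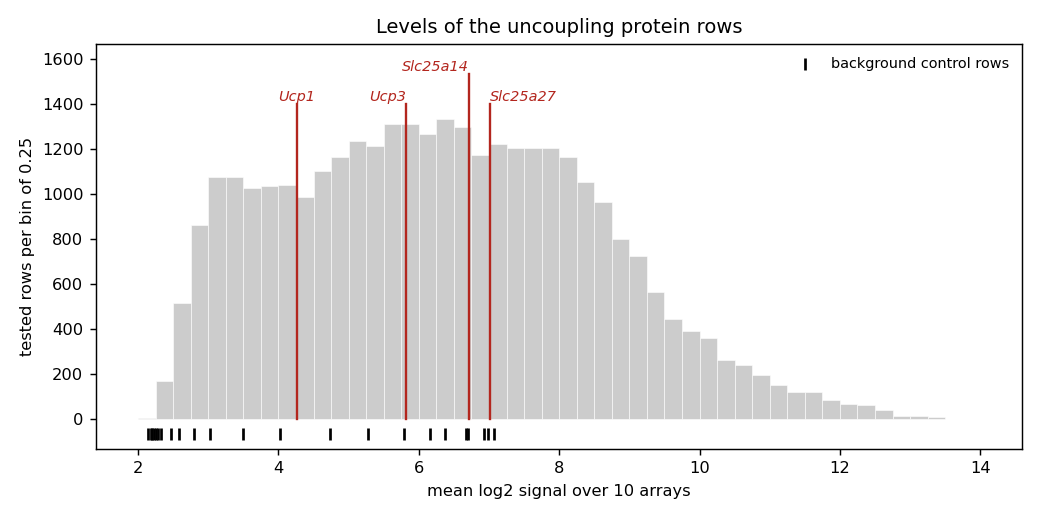
Number of tested rows by mean log2 signal over the 10 arrays (grey, bins of 0.25), with the 4 uncoupling protein genes as red lines and the 23 background control rows as black ticks under the axis. The members lie between 4.27 and 7.01, and the control rows reach 7.07.

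No pattern shared by the 4 members over the arrays was detected. Among the 6 pairs, Slc25a14 and Slc25a27 had the highest correlation over the 10 arrays, with Pearson's r = 0.55 (permutation p = 0.11, adjusted p = 0.52) and Spearman's rho = 0.27 (permutation p = 0.45, adjusted p = 0.97), and r was 0.18 without the 2 arrays farthest from the median of Slc25a14. Within ZT8 this r was 0.54 and within ZT20 it was 0.41. No pair passed a permutation test.

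The genes whose signal went most closely with each member were found among 11599 genes with a row above the median level (predicted genes, microRNAs, olfactory receptors and pseudogenes left out), by Pearson's r over the 10 arrays. For Slc25a27 they were Zfp280c (0.98), Guf1, a factor of mitochondrial translation (0.98), and Thrap3, a splicing-associated protein (0.97). For Slc25a14 they were Enoph1, an enzyme of methionine salvage (0.97), Pja1, a ubiquitin ligase (0.96), and Snx27, an endosomal sorting nexin (0.96). For Ucp1 the closest were Itpr2, an inositol trisphosphate receptor (0.88), Zfp316 (0.84) and Zfp697 (0.83). For Ucp3 they were Vstm2b (0.98), Ly6g6c (0.97) and Ankrd33 (0.96), and without ZT20 replicate 2, a setting chosen after seeing the data, these values were 0.80, 0.78 and 0.50. These are the highest of 11599 values each, and they are descriptions with no test.

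The remaining carriers of the SLC25 family give the setting of the members. Of 44 other genes with an Slc25a symbol none passed the test, 13 had a positive and 31 a negative difference, and the median was -0.03, the same as the -0.03 over all tested rows (0.02 for the carriers once every array's median was set to a common value). At an unadjusted p under 0.05 lay 3 carriers by limma and 4 by the methods' t-test, 6.82% of the family by limma against 18.5% of all tested rows. By the methods' t-test 5435 of all 32814 rows lay under it. The difference of Slc25a27 was exceeded in size by some of these carriers, whose differences ran from -0.14 to 0.18.

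**Figure D4:**
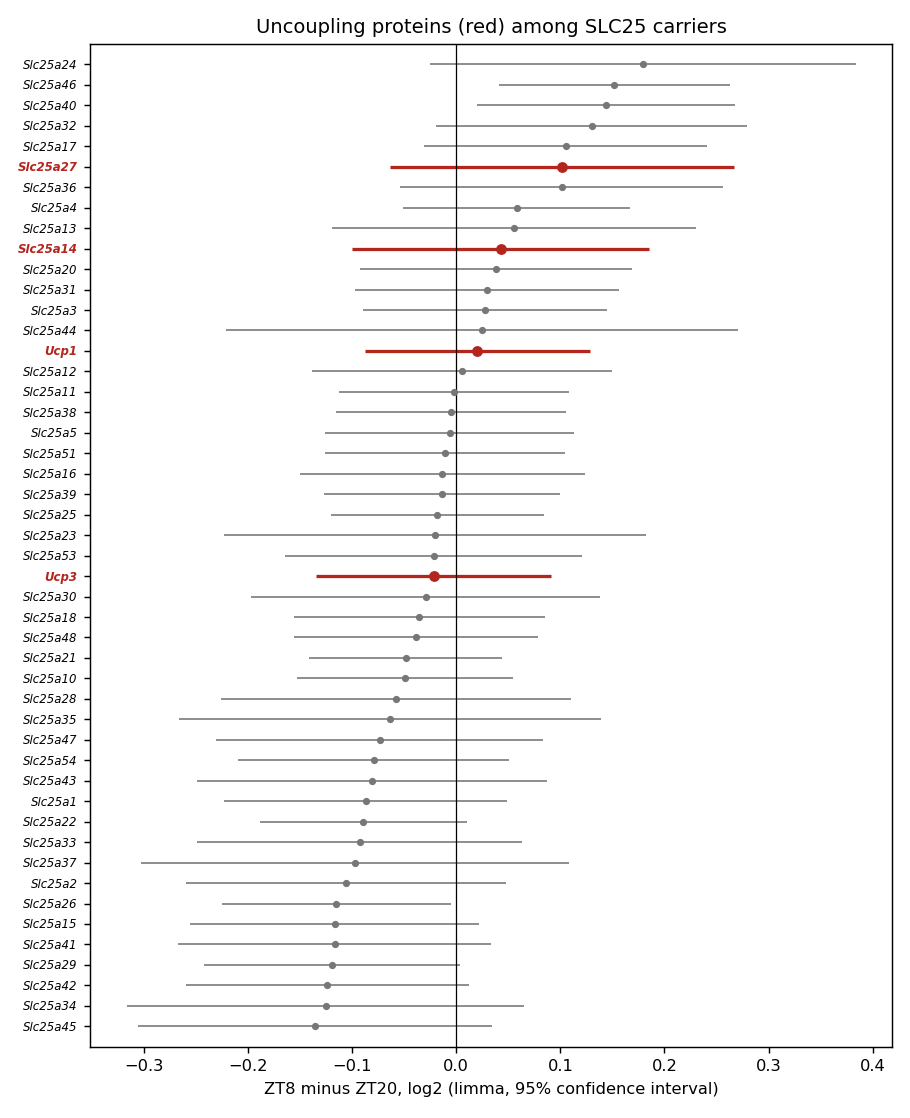
Difference ZT8 minus ZT20 (log2, points) with the 95% confidence interval from limma (lines) for the 4 measured uncoupling protein genes (red) and 44 other SLC25 carriers (grey), sorted by the difference. The intervals of all 4 members cross 0.

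The brightest carriers were Slc25a5 and Slc25a4, the ADP/ATP translocases that exchange matrix ATP for cytosolic ADP, Slc25a1, the citrate carrier, and Slc25a17, a peroxisomal carrier. Slc25a5 had a log2 signal of 10.9 in both groups and a difference of -0.0062 (95% confidence interval -0.13 to 0.11), and Slc25a4 had 0.06 (-0.05 to 0.17). Slc25a1 had a difference of -0.09 (adjusted p = 0.46 from limma) and Slc25a17 of 0.10 (adjusted p = 0.38). The 3 largest positive differences were those of Slc25a24, an ATP-Mg/phosphate carrier, at 0.18 (adjusted p = 0.33), Slc25a46, a protein of the outer membrane that acts on mitochondrial shape, at 0.15 (adjusted p = 0.15), and Slc25a40, known for mitochondrial glutathione import, at 0.14 (adjusted p = 0.21). The 3 largest negative ones were those of Slc25a45 (-0.14), Slc25a34 (-0.13) and Slc25a42, a coenzyme A carrier (-0.12), with adjusted p from 0.31 to 0.45. Slc25a26, which imports S-adenosylmethionine, was at -0.11 (adjusted p = 0.26), and with Slc25a46 and Slc25a40 it made up the 3 carriers at an unadjusted p under 0.05. Slc25a26 was named after its value was seen, as was Slc25a30, the closest relative of Slc25a14, at 6.63 ± 0.15 (SD, n = 5) at ZT8 and 6.66 ± 0.11 at ZT20.

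Transcription factors and cofactors known to act on uncoupling protein genes did not pass either. Of 14 listed regulators 12 were measured, none was called, 6 had a positive and 6 a negative difference, and the median was 0.0017. At an unadjusted p under 0.05 lay 1 by limma, against 18.5% of all tested rows. By the methods' t-test 2 did, against 5435 of all 32814 rows. The one by limma was Sirt1, an NAD-dependent deacetylase that has been studied as a repressor of Ucp2 in beta cells. Sirt1 was at 7.51, 7.57, 7.46, 7.50 and 7.63 on ZT8 replicates 1 to 5 and at 7.41, 7.33, 7.42, 7.40 and 7.42 on ZT20 replicates 1 to 5. The difference was 0.14 (SE 0.047, 95% confidence interval 0.03 to 0.24), short of the threshold over the whole array (limma, adjusted p = 0.16). Sirt1 was named after its value was seen. The 4 regulators with the highest signal were Srebf1, a lipogenic factor (0.03), Foxo1 (0.03) and Foxa2 (-0.23, SE 0.20), both forkhead factors of the beta cell, and Pparg, a receptor for fatty acids (0.14, adjusted p = 0.40), and none passed.

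Of 16 listed target genes of PPARs, 14 were measured and none passed. By limma 1 lay at an unadjusted p under 0.05, against 18.5% of all tested rows, and none by the methods' t-test. The targets had a median difference of 0.0037. The brightest were Cpt1a, the entry enzyme of mitochondrial fatty acid oxidation, at a difference of 0.0047, Plin2, a lipid droplet protein, at 0.02, Pdk4, an inhibitor of pyruvate dehydrogenase, at -0.10, and Hadhb, of the trifunctional protein, at 0.09. The one at an unadjusted p under 0.05 was Acaa2, a thiolase, at 0.18 (adjusted p = 0.21), named after its value was seen. Of 16 listed genes of ATP synthase, the enzyme that uses the proton gradient, 15 were measured and none passed (0 at an unadjusted p under 0.05 by limma, 1 by the methods' t-test), with a median of 0.02 and differences from -0.04 to 0.13. Over all tested rows 18.5% lay under this p by limma and 5435 of 32814 by the methods' t-test. Atp5f1a, the catalytic-core alpha subunit, was at -0.0069 and Atp5mg, a membrane subunit, at 0.13 (adjusted p = 0.35).

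The genes on either side of the Ucp3 and Ucp2 pair were C2cd3 and Dnajb13. C2cd3, a centriole protein, had a difference of 0.04 (95% confidence interval -0.10 to 0.19) and Dnajb13, a cilium protein, of -0.03 (-0.16 to 0.11), and neither passed (adjusted p = 0.74 and 0.84 from limma).

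Cells other than islet cells were represented in the RNA. Islet markers were bright, with Ins2 at a log2 signal of 13.2 in both groups and Ppy at 13.3, but the acinar gene Ctrb1 was the brightest of all tested rows, at 13.5. The mean over 7 acinar marker rows ran from 11.4 to 12.7 over the ZT8 arrays and from 11.5 to 12.6 over the ZT20 arrays. Of 10 skeletal muscle markers, 9 leukocyte markers, 10 neuron and glia markers, 7 acinar, 7 endothelial and 6 fibroblast markers none passed by limma or by the methods' t-test. At an unadjusted p under 0.05 by limma lay 1 muscle, 2 leukocyte and 2 fibroblast markers, all with negative differences, and none of the neuron, acinar and endothelial ones, where 18.5% of all tested rows lay under it. Over leukocyte markers, cells in which Ucp2 is known to be abundant, 8 of 9 differences were negative with a median of -0.13, where 20313 of all 32814 rows were negative, and the array means ran from 6.66 to 6.82 at ZT8 and from 6.68 to 7.02 at ZT20. All 6 fibroblast markers had negative differences (median -0.17) and all 7 acinar markers positive ones (median 0.19). Their part in the members' values was not tested. The 2 brightest markers of each list were Acta1 and Ckm for muscle, Cd68 and C1qa for leukocytes, Map2 and Nefm for neurons, Ctrb1 and Cpa1 for acinar cells, Cdh5 and Kdr for endothelium, and Pdgfrb and Col1a1 for fibroblasts.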

How the data were processed

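Gene expression was measured in islets with 1 one-colour Affymetrix array per sample. The paper's methods name a different Affymetrix array from the mouse transcriptome array whose rows were deposited. The log2 values were made and deposited by the authors: they are signals per transcript row, with GCRMA named in a supplementary heading and Affymetrix Expression Console in the submitters' processing notes. The genome build was not given in the sources used here, nor were settings. The table's 72688 rows and 10 columns were used as deposited, with values from 1.66 to 13.7. Pearson correlations between arrays over the 65956 transcript rows ran from 0.9902 to 0.9972, and no pair of arrays shared more than 9 identical values. Arrays were mapped to groups by the time point label.

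Rows naming at least 1 gene (32814) were tested with limma 3.58.1 (lmFit and eBayes, two-sided) in R 4.3.3, dim rows included, with Benjamini-Hochberg adjustment over all of them. The threshold was an adjusted p under 0.05. Symbols were updated through Entrez numbers with the RefSeq table of GRCm38.p6. A gene is given from the row naming it alone with the highest mean. Members and lists were chosen with earlier results of these data known. Named are the members, the brightest and most different SLC25 carriers, the brightest genes of the other lists and the genes next to Ucp3 and Ucp2. Lists are described by counts and medians. Alternatives were 2 other scalings, 3 other row sets, a replicate block, a trended and robust prior, array weights, the methods' t-test and each array left out. The procedure was tested on simulated data. The number of arrays limits the precision. Python 3.11.15, numpy 2.4.6, pandas 2.3.3, scipy 1.17.1 and matplotlib 3.10.9 were used.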

Additional observations from a re-analysis of the deposited data

Results flagged for a closer look

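Of the 88 groups of 5 arrays examined for the 4 members and 40 further named genes, 4 held 1 array apart from the other 4 by Dixon's criterion, which chance alone meets in about 1 of 20 groups. Ucp3 was at 6.00 on ZT20 replicate 2, against 5.77 to 5.81 on the other ZT20 arrays. Foxo1 was at 9.03 on ZT8 replicate 1, against 9.31 to 9.41 on the other ZT8 arrays. Srebf1 was at 9.62 on the same array, against 9.82 to 9.88. Slc25a17 was at 10.1 on ZT20 replicate 3 (10.13), against 9.85 to 9.92 on the other ZT20 arrays.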

How the results depend on the processing

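The 4 members stayed short of the threshold under each alternative run, with adjusted p from 0.33 to 0.99. Slc25a27 kept a positive difference in all of them, from 0.05 with array weights to 0.15. Ucp3 turned from -0.02 to 0.026 with arrays centred on their medians, to 0.023 after quantile normalization and to 0.0032 with array weights. Without 1 array at a time the differences ran from -0.0082 to 0.039 for Ucp1 (reversed without ZT20 replicate 4), from -0.037 to 0.021 for Ucp3 (reversed without ZT20 replicate 2), from -0.0027 to 0.094 for Slc25a14 (reversed without ZT8 replicate 5) and from 0.051 to 0.14 for Slc25a27. The count of other SLC25 carriers called was 0 under each alternative, and their median of -0.03 became 0.022 with centring and ran from -0.04 to -0.01 without 1 array at a time. Each measured member had a single row, so no mean over rows was formed, and Ucp1 and Ucp3 lay below the median level, so they gave no value among rows above it.

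The counts over all rows, 186 higher and 58 lower at ZT8, depended on the setting. They were 539 and 64 with centring (89.4% higher against 76.2%), 42 and 13 after quantile normalization, 423 and 44 among rows above the median level, 1 and 0 over all transcript rows, 407 and 109 with the trended and robust prior, 598 and 232 with array weights and 2 and 0 by the methods' t-test. Without 1 array at a time they ran from 1 to 358 and from 0 to 69. The cause was not tested. With the replicate number as a block the counts were 39 and 12, and the members' differences were 0.02, -0.02, 0.04 and 0.10 with adjusted p from 0.38 to 0.82. Same-numbered arrays correlated from -0.13 to 0.35 in their deviations from the group means. On this measure 3 of 5 ZT8 and 3 of 5 ZT20 arrays correlated best with their own number. The titles only call the arrays biological replicates, so the main test did not use the numbers. Whether the numbers mark pairs cannot be told from these values.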
